A study of Mus musculus with 9 samples.

Results

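The genes described here encode the 5 complexes of mitochondrial oxidative phosphorylation, and their transcripts were measured in liver of KKAy mice on 9 one-colour Affymetrix arrays. KKAy is an obese strain that carries the yellow Ay allele of agouti and is used as a model of type 2 diabetes. Members were the probe sets annotated to exactly 1 gene whose symbol begins with Nduf, Uqcr, Cox4i, Cox5, Cox6, Cox7, Cox8 or Atp5, or is Sdha, Sdhb, Sdhc, Sdhd or Cyc1, with the probe set of highest mean standing for its gene. This gave 91 genes, from 180 probe sets, of 18193 genes and 45037 probe sets in all. They comprised 42 genes of complex I, 4 of complex II, 9 of complex III, 19 of complex IV and 17 of complex V. Ndufa4 and Ndufa4l2 were counted with complex IV, since Ndufa4 is now known as a subunit of that complex.

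The 3 groups held 3 arrays each, were all 8 weeks old and included no mice of another strain. For the KKAy group the treatment is labelled none, although the protocol has a control group given 100 µL of DMEM, a culture medium, and it is not stated that these are the same mice. Insulin mice received the same volume with 40 µg/mL insulin, and BI mice received that total concentration with 11% of it as biomineralized insulin, both into the abdominal cavity. The chow held 34% fat, as stated for every array but BI replicate 2, and each group started with 8 to 12 mice. Whether an array stands for 1 mouse, a pool or a repeat of the same RNA is not given, and p-values therefore reflect only how far these arrays vary, which may be technical. The growth protocol of BI replicate 2 describes rats. The array was kept with its labelled group, and results are also given without it.

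Oxidative phosphorylation couples the oxidation of NADH and succinate to the making of ATP. Complex I passes electrons from NADH, and complex II from succinate, to ubiquinone. Complex III hands them to cytochrome c and complex IV to oxygen, and the proton gradient built on the way drives complex V, the ATP synthase. Most subunits are nuclear genes, as are all those measured here, and hepatocytes use the ATP for gluconeogenesis, urea synthesis and other work. Several complex IV subunits exist as a common form and as a second isoform restricted to muscle, testis, lung or other tissues.

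All values are log2 signals as the authors deposited them, each difference is a log2 difference between group means, and values of single arrays are given in the order of replicates 1 to 3. All 8 hepatocyte markers were measured, with mean signals of 13.28 to 15.48, which matched the labelled tissue. Array medians lay between 6.11 and 6.30. The difference between the 3' and 5' probe sets of Gapdh, a measure of RNA integrity, was 0.26 to 0.65, with the highest value in KKAy replicate 3. For beta-actin the same difference was larger, at 1.80 to 2.23, with the highest value in Insulin replicate 1. Over the whole array, 0 probe sets passed an adjusted p of 0.05 in Insulin against KKAy, 5 in BI against KKAy and 0 in BI against Insulin. The 5 became 0 to 2 when any 1 array was left out. The Insulin and BI comparisons with KKAy share the KKAy arrays. In bulk liver, fewer cells of a type and less RNA per cell cannot be told apart.

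Most of the genes gave strong and steady signals. Of the 91 members, 84 were above the array median on all 9 arrays and 72 had a mean signal of 12 or more. Their median within-group standard deviation was 0.13, against 0.38 over all genes. Among the 72 members with a mean of 12 or more it was 0.10, against 0.14 over the 1337 genes of that level. Every gene of complexes II, III and V had a mean of 12 or more, as did 32 of 42 genes of complex I and 10 of 19 of complex IV. The 8 complex I assembly factors had means of 8.69 to 11.89. The 6 members below the lowest array median were Ndufb4 and 5 restricted complex IV isoforms. Signals of different probe sets depend on their probes, so a higher mean does not show a more abundant transcript.

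**Figure D1:**
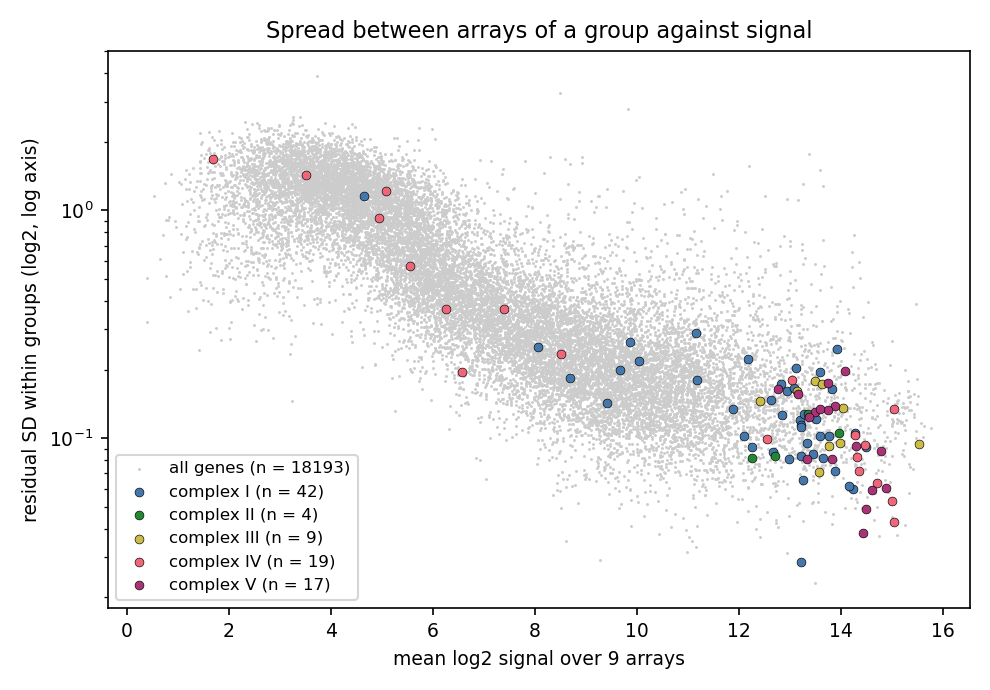
Within-group standard deviation (log2, log axis) against mean log2 signal over 9 arrays, for all 18193 genes in grey and the 91 members coloured by complex. Most members sit at a mean of 12 or more with a median SD of 0.10, while the 6 members below the lowest array median, Ndufb4 and 5 restricted complex IV isoforms, spread by more than the median of 0.38 over all genes.

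No member passed the test in any comparison. In the limma fit across all 45037 probe sets with Benjamini-Hochberg adjustment, 0 of the 91 genes and 0 of their 180 probe sets passed an adjusted p of 0.05 in Insulin against KKAy (background 0%), BI against KKAy (background 0.0111%) or BI against Insulin (background 0%). The smallest adjusted p of a member in the limma fit was 0.999. At an unadjusted p under 0.05, 1 of 91 genes passed in Insulin against KKAy, where 3.87% of all genes did. None passed in BI against KKAy (0 of 91, background 3.9%) or in BI against Insulin (0 of 91, background 3.44%). Over all 180 member probe sets the counts were 3, 2 and 1, where 4.47%, 4.48% and 4.04% of all probe sets passed.

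Groups of 3 arrays that did not overlap were also few. They did not overlap for 1 gene in Insulin against KKAy (background 9.23%), for 3 in BI against KKAy (background 9.36%) and for 2 in BI against Insulin (background 9.88%). The median difference over the 91 genes was -0.008 in Insulin against KKAy, with 41 genes higher and 50 lower. In BI against KKAy the median was -0.018, with 33 higher and 58 lower, and in BI against Insulin it was -0.011, with 37 higher and 54 lower. The same medians over all genes were 0.023, 0.00038 and -0.026. Among genes with a mean of 12 or more, the 72 members had medians of -0.011, -0.025 and -0.011, with 40.3%, 34.7% and 40.3% higher, and all 1337 genes had medians of 5.97e-05, 0.019 and 0.019, with 50%, 55.7% and 56.1% higher. The sign of the median over the 91 genes was not stable. It ran from -0.062 to 0.028 over the alternatives in Insulin against KKAy, from -0.047 to 0.018 in BI against KKAy and from -0.035 to 0.026 in BI against Insulin. Both medians against KKAy were above zero without KKAy replicate 1. That in Insulin was so without Insulin replicate 2 or 3 too, and that in BI without BI replicate 1. Between the treatments the median was above zero without Insulin replicate 1, without BI replicate 1 and with equal array medians. Without BI replicate 2 the members' medians were -0.016 in BI against KKAy and -0.0088 in BI against Insulin, and 0 members passed the adjusted threshold.

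How small a change the arrays could have missed is given by the 95% intervals of the fit. The interval lay wholly within a 1.5-fold change for 72 of 91 genes in Insulin against KKAy, where it did for 24.6% of all genes. It did so for 73 genes in BI against KKAy (background 23.9%) and for 74 in BI against Insulin (background 25.1%). Over the alternatives these 3 counts ran from 59 to 79, from 54 to 81 and from 57 to 81. Among the 72 members with a mean of 12 or more the counts were 69, 66 and 69, where 73.4%, 70.8% and 75.7% of all genes of that level qualified. The bright members whose interval reached past 1.5-fold were Ndufs8, Ndufa10 and Uqcrc1 in Insulin against KKAy. They were Ndufs8, Ndufv1, Ndufa10, Ndufa12, Cox8a and Atp5g1 in BI against KKAy, and Ndufs8, Ndufv1 and Ndufa12 in BI against Insulin. For a gene whose interval reached past 1.5-fold, bright or dim, a change of that size lies inside the interval. The number of arrays limits the precision, and the fit also draws each gene's variance towards that of all probe sets. This widens the intervals of steady genes. Ndufb8, with a within-group standard deviation of 0.029, had an SE of 0.14 in Insulin against KKAy. The interval of Uqcrc1 in that comparison only just reached past 1.5-fold.

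**Figure D2:**
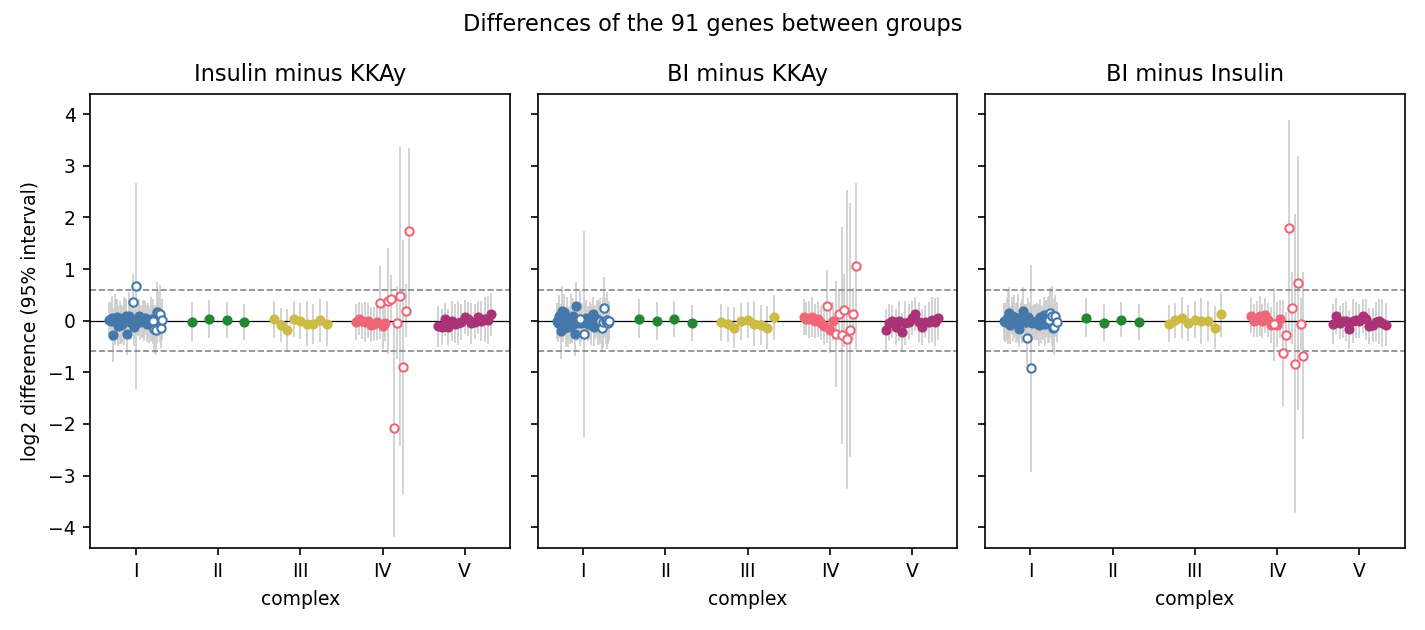
Log2 difference of each of the 91 genes between groups, by complex, with 95% intervals from limma as grey bars. Filled points are the 72 genes with a mean signal of 12 or more and open points the other 19, dashed lines mark a 1.5-fold change, and the wide intervals belong to open points.

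By complex, the median differences lay within 0.06 of zero over all 9 arrays. Complex I, the NADH dehydrogenase, had medians of 0.0022, -0.019 and -0.015 in Insulin against KKAy, BI against KKAy and BI against Insulin. For complex II they were -0.0042, 0.013 and -0.00062. Complex III had medians of -0.055 in Insulin and -0.059 in BI against KKAy, with 6 and 7 of 9 genes lower, where 8426 and 9083 of all 18193 genes were, and -0.0043 between the treatments. Over the alternatives its median ran from -0.13 to -0.0091 in Insulin against KKAy, with the ends reached without Insulin replicate 1 and without Insulin replicate 3. In BI against KKAy it ran from -0.089 to 0.0080, and was above zero without BI replicate 1. In complex IV the medians were -0.022, 0.023 and -0.0027, and in complex V -0.012, -0.031 and -0.012. Complex V had 13 of 17 genes lower in BI than in KKAy, and its median there ran from -0.069 to 0.019 over the alternatives, and was above zero without KKAy replicate 1.

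Averaging each complex on each array, after centring every gene on its own mean, showed that arrays of a group differed more than groups did. Complex I was at 0.094, 0.00066 and -0.096 in KKAy, at 0.089, -0.0032 and -0.049 in Insulin, and at -0.065, -0.029 and 0.059 in BI. Its lowest and its highest array were both KKAy arrays. KKAy replicate 1 and Insulin replicate 1 were also the top pair in complexes III and V, at 0.097 and 0.096 in complex III and 0.098 and 0.10 in complex V. Complex II ranged from -0.12 in KKAy replicate 2 to 0.061 in KKAy replicate 1. The 11 common subunits of complex IV spanned 0.12 over the 9 arrays. The groups overlapped in every complex.

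**Figure D3:**
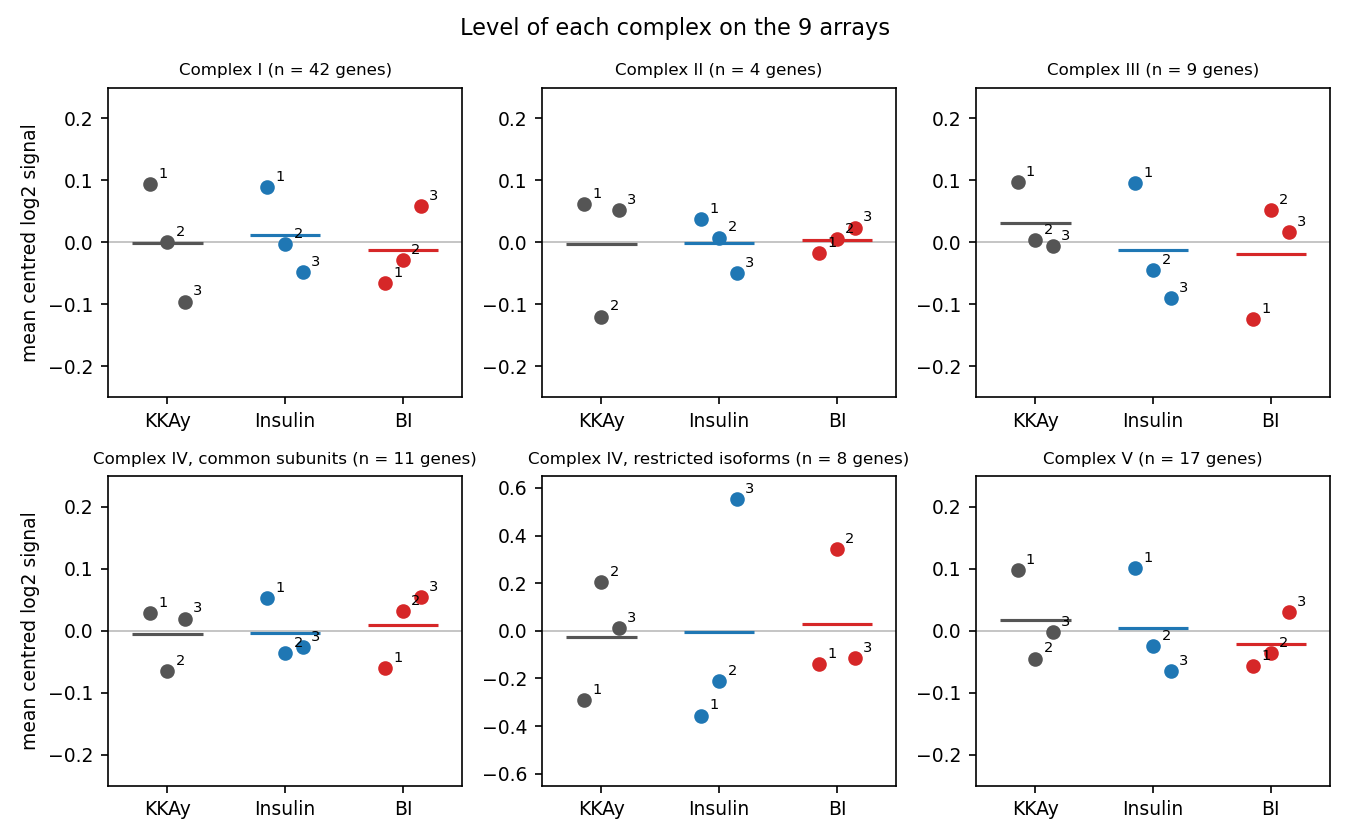
Mean centred log2 signal of each complex on each of the 9 arrays, with replicate numbers beside the points and a bar at each group mean; the panel of restricted complex IV isoforms has a wider axis. In every panel the 3 groups overlap, and KKAy replicate 1 and Insulin replicate 1 are the highest arrays for complexes I, III and V.

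Complex I had 6 core subunits, 28 accessory subunits and 8 assembly factors among the members. The 6 include the subunits that carry the flavin and iron-sulfur centres. The core subunits had median differences of 0.021 in Insulin and -0.017 in BI against KKAy. Ndufs8, an iron-sulfur subunit, read 14.15, 14.16 and 14.00 in the KKAy arrays, 14.13, 13.69 and 13.63 in the Insulin arrays and 14.05, 14.10 and 13.53 in the BI arrays. Insulin replicates 2 and 3 and BI replicate 3 were the low arrays, and each treated group overlapped KKAy. Its difference was -0.28 ± 0.22 (SE) in Insulin against KKAy and -0.21 ± 0.22 in BI against KKAy, with unadjusted limma p of 0.25 and 0.38. Ndufv1, the flavin-binding subunit that takes electrons from NADH, read 12.14, 12.02 and 12.21 in the KKAy arrays, 12.40, 12.10 and 11.95 in the Insulin arrays and 12.16, 12.11 and 12.64 in the BI arrays. Only BI replicate 3 stood high there, and the BI minus Insulin difference of 0.16 became -0.012 without it.

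Among accessory subunits, Ndufa10 read 13.42, 13.26 and 13.11 in the KKAy arrays, 13.20, 12.97 and 12.87 in the Insulin arrays and 12.80, 13.11 and 13.10 in the BI arrays. All BI arrays were below all KKAy arrays, but only just, with 13.107 in BI replicate 2 and 13.112 in KKAy replicate 3. The Insulin arrays overlapped both groups, and the differences from KKAy were -0.25 ± 0.18 (SE) in Insulin and -0.26 ± 0.18 in BI. Ndufb11 also had non-overlapping groups, with 14.14, 14.20 and 14.22 in KKAy and 14.29, 14.29 and 14.39 in BI, a difference of 0.13. For Ndufc1 the Insulin arrays, at 13.60, 13.62 and 13.60, lay just above the BI arrays, at 13.49, 13.59 and 13.53. Ndufa12 read 13.55, 13.37 and 13.48 in the KKAy arrays, 13.56, 13.54 and 13.60 in the Insulin arrays and 13.89, 13.39 and 13.99 in the BI arrays. BI replicates 1 and 3 were high and BI replicate 2 was at the KKAy level, so the groups overlapped at a difference of 0.29 ± 0.20 from KKAy. Its difference was 0.47 without BI replicate 2 and -0.026 when the gene's 4 probe sets were averaged.

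The remaining named accessory subunits varied within small ranges or at low signal. Ndufa1 read 14.38, 14.34 and 14.56 in the KKAy arrays, 14.51, 14.43 and 14.54 in the Insulin arrays and 14.49, 14.63 and 14.66 in the BI arrays, which is 0.17 ± 0.15 in BI minus KKAy with overlapping groups. Ndufa8 was at 13.45, 13.45 and 13.38 in Insulin and 13.11, 13.27 and 13.43 in BI, a difference of -0.16 ± 0.15. Ndufb8 had the smallest spread of all members, with values of 13.19 to 13.27 over the 9 arrays, and was picked out after its values were seen. Ndufb1, with a mean of 8.07, read 8.08, 7.88 and 7.87 in the KKAy arrays, 8.73, 7.96 and 8.22 in the Insulin arrays and 7.95, 7.85 and 8.13 in the BI arrays, and Insulin replicate 1 alone was high. Ndufb4 had 1 probe set of its own with a mean of 4.65 and values from 2.28 in BI replicate 1 to 5.55 in BI replicate 3. Its BI minus Insulin difference was -0.93 ± 0.86, and 0.059 without BI replicate 1. A probe set shared by Ndufb4 and its copies Ndufb4b and Ndufb4c, left out by the rule, had a mean of 13.51 and differences of -0.026 and -0.058 from KKAy.

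Assembly factors help build complex I and are absent from the finished enzyme. Of the 8, Ndufaf4 read 11.25, 11.04 and 10.79 in the KKAy arrays, 11.40, 11.45 and 10.71 in the Insulin arrays and 11.35, 11.09 and 11.41 in the BI arrays, and a low array lay in KKAy and in Insulin. Its difference from KKAy was 0.25 ± 0.25 (SE) in BI, the highest of the group. Ndufaf3 read 10.40, 10.11 and 9.83 in the KKAy arrays, 10.17, 9.79 and 9.83 in the Insulin arrays and 10.20, 9.95 and 10.10 in the BI arrays, with -0.18 ± 0.21 in Insulin against KKAy. The 8 differences lay between -0.18 and 0.16 in Insulin and between -0.14 and 0.25 in BI, against KKAy.

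Complex II, succinate dehydrogenase, also works in the tricarboxylic acid cycle. Sdha, the flavoprotein that oxidizes succinate, read 13.44, 13.12 and 13.51 in the KKAy arrays, 13.41, 13.26 and 13.34 in the Insulin arrays and 13.37, 13.39 and 13.43 in the BI arrays. Sdhb, the iron-sulfur subunit, read 14.09, 13.86 and 13.96 in the KKAy arrays, 14.11, 13.99 and 13.90 in the Insulin arrays and 13.88, 13.94 and 14.07 in the BI arrays. The groups overlapped for both, and KKAy replicate 2 was the lowest array for each. Of the membrane anchors, Sdhc read 12.16, 12.23 and 12.36 in the KKAy arrays, 12.21, 12.35 and 12.23 in the Insulin arrays and 12.31, 12.34 and 12.21 in the BI arrays. Sdhd read 12.89, 12.63 and 12.70 in the KKAy arrays, 12.74, 12.77 and 12.66 in the Insulin arrays and 12.70, 12.68 and 12.71 in the BI arrays. The 4 differences lay between -0.021 and 0.03 in Insulin, and between -0.043 and 0.04 in BI, against KKAy. All 4 genes had 95% intervals within 1.5-fold in each comparison.

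Complex III was represented by its redox subunits Cyc1 and Uqcrfs1, the core proteins Uqcrc1 and Uqcrc2 and 5 accessory subunits. Cyc1, cytochrome c1, read 13.92, 13.68 and 13.72 in the KKAy arrays, 13.86, 13.78 and 13.75 in the Insulin arrays and 13.66, 13.75 and 13.80 in the BI arrays, with differences of 0.025 ± 0.15 (SE) and -0.032 ± 0.15 from KKAy in Insulin and BI. Uqcrfs1, the Rieske iron-sulfur protein, differed by -0.083 and -0.073. Uqcrc1 read 12.63, 12.36 and 12.56 in the KKAy arrays, 12.52, 12.35 and 12.12 in the Insulin arrays and 12.37, 12.32 and 12.46 in the BI arrays. Insulin replicate 3 was its lowest array, the groups overlapped, and the Insulin minus KKAy difference was -0.18 ± 0.17, with a 95% interval of -0.59 to 0.22. Uqcrb stayed between 15.43 and 15.66 on all arrays. Over the 9 genes the differences ran from -0.18 to 0.031 in Insulin and from -0.14 to 0.065 in BI, against KKAy.

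Complex IV, cytochrome c oxidase, had 11 common subunits and 8 isoforms of restricted expression. The common subunits had median differences of -0.027 in Insulin and 0.023 in BI against KKAy. Cox4i1, the common form of subunit 4, read 14.33, 14.29 and 14.31 in the KKAy arrays, 14.38, 14.25 and 14.23 in the Insulin arrays and 14.25, 14.45 and 14.45 in the BI arrays. Cox5a stayed between 14.95 and 15.09 and Cox7a2 between 14.93 and 15.09. Cox8a was lowest in BI replicate 1, with 13.21, 13.18 and 13.03 in the KKAy arrays, 13.30, 12.93 and 12.88 in the Insulin arrays and 12.74, 13.10 and 13.04 in the BI arrays, and differed by -0.18 ± 0.19 (SE) in BI against KKAy. Ndufa4 stayed between 14.13 and 14.41. Cox7c was the common subunit of low signal, at a mean of 7.40, and differed by 0.35 ± 0.30 in Insulin against KKAy. Its KKAy arrays read 7.84, 6.65 and 7.08, and all Insulin and BI arrays lay inside that range.

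Where both forms of a complex IV subunit were members, the common form was well above the array median, and the restricted form, apart from Cox6a2 and Cox8c, was near or below it. The common partner of Cox7b2 was not among the members. Cox4i2, the lung and hypoxia form of subunit 4, had a mean of 5.55. Cox6a2, Cox7a1 and Cox8b, the heart and skeletal muscle forms, had means of 6.57, 6.26 and 3.52. Cox6b2, Cox7b2 and Cox8c, the testis forms, had means of 5.08, 1.68 and 8.52. The members' common partners, Cox4i1, Cox6a1, Cox6b1, Cox7a2, Cox7a2l and Cox8a, had means of 14.33, 15.04, 14.72, 15.02, 12.56 and 13.05. Cox6a2 and Cox8c were the only restricted isoforms above the array median on all 9 arrays.

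In both comparisons with KKAy, the highest and the lowest difference of any member belonged to the restricted isoforms Ndufa4l2, Cox6b2 or Cox7b2, all of wide spread. Ndufa4l2, a hypoxia-induced relative of Ndufa4 that is strong in pericytes, read 3.76, 4.13 and 4.18 in the KKAy arrays, 4.87, 5.50 and 6.90 in the Insulin arrays and 5.50, 6.01 and 3.72 in the BI arrays. All Insulin arrays lay above all KKAy arrays, while BI replicate 3 was below them. The difference of 1.73 ± 0.69 (SE) in Insulin against KKAy, 3.33-fold, had an unadjusted limma p of 0.039 and did not pass adjustment. It was 1.16 without Insulin replicate 3. In BI the difference from KKAy was 1.05 ± 0.69, and 0.59 without BI replicate 2. Each group mean of Ndufa4l2 was under 6.11, the lowest median of any array.

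Cox6b2 read 5.81, 6.15 and 5.65 in the KKAy arrays, 4.02, 1.64 and 5.69 in the Insulin arrays and 5.95, 5.05 and 5.76 in the BI arrays. Insulin replicates 1 and 2 were low and the third Insulin array was at the KKAy level, so the groups overlapped. Its difference of -2.09 ± 0.90 (SE) in Insulin against KKAy, with an unadjusted limma p of 0.051, became -1.02 when Insulin replicate 2 was left out and -3.04 when Insulin replicate 3 was. Between the treatments it was 1.80 ± 0.90, and 0.73 without Insulin replicate 2. Cox6a2 read 6.31, 6.54 and 6.32 in the KKAy arrays, 6.80, 7.10 and 6.52 in the Insulin arrays and 6.42, 6.51 and 6.63 in the BI arrays, with 0.42 ± 0.20 in Insulin against KKAy, and -0.14 when its 2 probe sets were averaged. Cox4i2 differed by -0.63 ± 0.44 and Cox7a1 by 0.24 ± 0.30 in BI against Insulin. Cox8c differed by 0.19 ± 0.22 in Insulin against KKAy. The Cox7b2 values ran from 0.26 to 4.28 and those of Cox8b from 1.93 to 5.41, with overlapping groups.

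**Figure D4:**
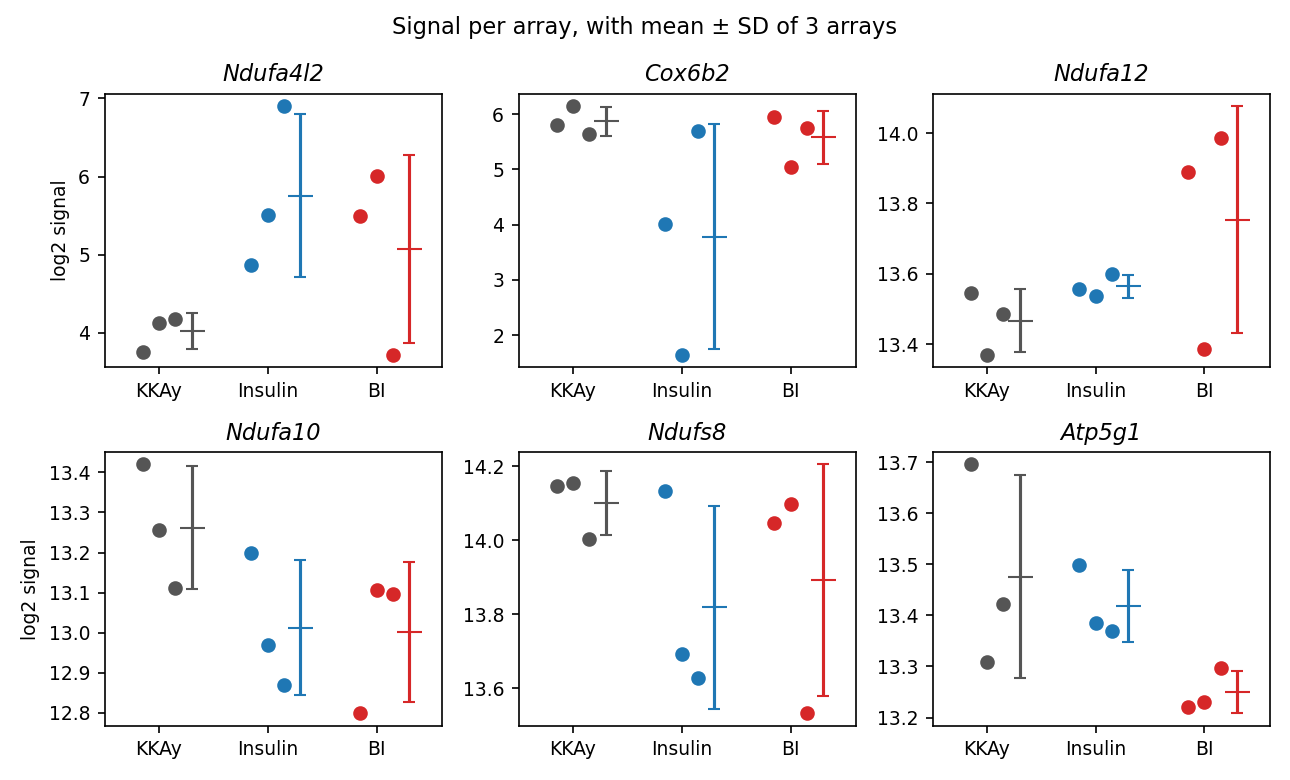
Log2 signal of Ndufa4l2, Cox6b2, Ndufa12, Ndufa10, Ndufs8 and Atp5g1 on each array, with the mean ± SD of each group of 3 arrays beside the points; each panel has its own axis. For Ndufa4l2 all Insulin arrays lie above all KKAy arrays. For Ndufa10 and Atp5g1 all BI arrays lie below all KKAy arrays, but only just. The other 3 genes overlap between every pair of groups.

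Many markers of the cells these isoforms are known from were at low levels. All 10 muscle markers had means below the lowest array median, and their mean centred level ran from -0.54 to 0.23 in KKAy, -0.078 to 0.39 in Insulin and -0.25 to 0.20 in BI. Of the 6 smooth muscle and pericyte markers, 2 were below that median. Their level ran from -0.58 to 0.53 in KKAy, -0.27 to 0.29 in Insulin and -0.29 to -0.027 in BI. Of 4 testis markers 3 were below it, with levels of -0.84 to 0.51 in KKAy, -0.41 to 0.44 in Insulin and -0.21 to 0.69 in BI. The 5 brown adipocyte markers, which include Cox7a1, ran from -0.57 to -0.025 in KKAy, -0.62 to 0.29 in Insulin and 0.34 to 0.51 in BI. All 5 were higher in BI than in KKAy, and 4 were higher in BI than in Insulin. The 2 of smallest p in BI against KKAy were Ucp1, at 1.04 ± 0.51 (SE), and Cidea, at 1.81 ± 1.17. Both were dim, with means of 3.19 and 5.49. Of the 5, 3 were below the median, and the highest mean, that of Elovl3, was 14.22. None of these markers was at 0 on any array, and 0 passed the adjusted limma threshold in any comparison. Their part in the isoform values was not tested. Among the other marker lists, 4 of 6 macrophage and Kupffer cell markers and 5 of 6 endothelial markers were higher in Insulin than in KKAy, and all 6 of each were lower in BI than in Insulin, with 0 adjusted calls. All 3 measured white adipocyte markers were higher and all 3 measured red cell markers lower in BI than in KKAy, again with 0 adjusted calls. The 3 white adipocyte markers were also higher in Insulin than in KKAy, and all 3 had means below the lowest array median. Of the 3 red cell markers, 1 was below that median, and 2 were lower in Insulin than in KKAy.

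Complex V divides into the catalytic F1 head, the c ring, the stalk and further membrane subunits. Atp5b, the catalytic beta subunit, read 14.47, 14.27 and 14.32 in the KKAy arrays, 14.32, 14.11 and 14.24 in the Insulin arrays and 14.23, 14.36 and 14.34 in the BI arrays. Atp5a1, the alpha subunit, read 13.99, 13.88 and 14.08 in the KKAy arrays, 13.77, 13.91 and 13.93 in the Insulin arrays and 13.88, 13.58 and 13.96 in the BI arrays. BI replicate 2 was its low array, and the difference of -0.18 ± 0.17 (SE) in BI against KKAy was -0.063 without it. All 5 F1 genes were lower in BI than in KKAy by 0.01 to 0.18, with overlapping groups for each. Over all 18193 genes 9083 were lower in that comparison. The median half-width of the 95% intervals of the 5 genes was 0.35.

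The c ring turns with the proton flow, and its subunit is encoded by Atp5g1, Atp5g2 and Atp5g3, whose mature proteins are the same. Atp5g1 read 13.70, 13.31 and 13.42 in the KKAy arrays, 13.50, 13.39 and 13.37 in the Insulin arrays and 13.22, 13.23 and 13.30 in the BI arrays. All BI arrays lay below all Insulin arrays and, only just, below all KKAy arrays. The BI difference was -0.23 ± 0.16 (SE) from KKAy and -0.17 ± 0.16 from Insulin, with unadjusted limma p of 0.21 and 0.33. Atp5g2 differed by -0.048 and Atp5g3 by -0.031 in BI against KKAy. Atp5h, a stalk subunit, read 14.59, 14.49 and 14.61 in the KKAy arrays, 14.61, 14.63 and 14.58 in the Insulin arrays and 14.74, 14.61 and 14.75 in the BI arrays, a BI minus KKAy difference of 0.13 ± 0.14 in which BI replicate 2 shared the level of the KKAy arrays. Atp5pb, the stalk subunit b, stayed between 14.80 and 14.96. The 5 membrane subunits were all lower in BI than in Insulin, by 0.012 to 0.081, where 9886 of all 18193 genes were. The median half-width of their 95% intervals was 0.41, and the 4 stalk genes were 2 higher and 2 lower.

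Other probe sets of the same genes gave no adjusted call either. Of the 89 not used to represent a gene, 51 had the sign of their gene's chosen probe set in Insulin against KKAy, 56 in BI against KKAy and 49 in BI against Insulin. The smallest p belonged to a dim Ndufs4 probe set with a mean of 4.98, which read 4.33, 2.47 and 4.35 in the KKAy arrays, 5.41, 5.26 and 6.39 in the Insulin arrays and 5.50, 5.33 and 5.77 in the BI arrays. KKAy replicate 2 was its lowest array, and its differences of 1.98 ± 0.55 (SE) and 1.82 ± 0.55 contrast with -0.069 and 0.036 for the bright Ndufs4 probe set, at a mean of 12.11. A second Sdhc probe set, with a mean of 10.06, read 9.87, 9.60 and 9.86 in the KKAy arrays, 10.04, 10.06 and 10.13 in the Insulin arrays and 10.05, 10.30 and 10.62 in the BI arrays. It was 0.54 ± 0.19 in BI against KKAy, where the chosen Sdhc probe set gave 0.033. A second Atp5g2 probe set differed by -1.49 ± 0.62 in Insulin against KKAy, and an Ndufab1 probe set by 0.62 in BI against Insulin.

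Nuclear genes of oxidative phosphorylation are known targets of the transcription factors NRF1, GABPA, ESRRA and YY1. RefSeq promoter windows of 300 bases, from 250 before to 50 after the gene start in GRCm38.p6, were found for 74 of the 91 genes, in 79 windows. The letters GCGCANGCG of the NRF1 motif were searched on both strands and occurred in 26.6% of member windows, against 6.25% of all 32851 windows and 8.58% of those of protein-coding genes. The YY1 letters AANATGGCG occurred in 12.7%, against 2.38% and 3.12%. The ETS letters CCGGAAGT, which GABPA reads, occurred in 6.33%, against 3.89% and 5.15%, and the ESRRA letters TCAAGGTCA in 2.53%, against 0.423% and 0.334%. Member windows had a median GC content of 59.0%, against 52.7% and 56.3%, and a median of 20 CG dinucleotides, against 7 and 13. GC-rich motifs are more frequent in GC-rich sequence. The overlapping windows of Ndufa5 hold the same NRF1 match, which is counted in each. No letters of 1 motif overlapped those of another in a member window. A match is a description of letters and no evidence of binding.

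Below are promoter windows of members described above, 1 from each complex with several matches and the isoform Cox6b2 with none. Capitals mark the matches, which in Ndufa8, Sdha, Uqcrc1 and Cox6a1 are all to the NRF1 letters on either strand. In Atp5h they mark an NRF1 and an ETS match. Ndufa8 lies at chr2:36049289-36049588 on the minus strand and Sdha at chr13:74350191-74350490 on the minus strand. Uqcrc1 lies at chr9:108936398-108936697 on the plus strand and Cox6a1 at chr5:115348909-115349208 on the minus strand. Atp5h lies at chr11:115419870-115420169 on the minus strand and Cox6b2 at chr7:4753045-4753344 on the minus strand. Each sequence reads 5′ to 3′ on the strand of its gene.
Ndufa8: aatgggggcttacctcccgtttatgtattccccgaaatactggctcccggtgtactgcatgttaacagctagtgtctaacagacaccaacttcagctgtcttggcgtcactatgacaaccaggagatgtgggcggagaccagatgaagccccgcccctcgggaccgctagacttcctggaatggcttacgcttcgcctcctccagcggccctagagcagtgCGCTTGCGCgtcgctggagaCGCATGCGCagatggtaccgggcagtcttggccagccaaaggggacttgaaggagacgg
Sdha: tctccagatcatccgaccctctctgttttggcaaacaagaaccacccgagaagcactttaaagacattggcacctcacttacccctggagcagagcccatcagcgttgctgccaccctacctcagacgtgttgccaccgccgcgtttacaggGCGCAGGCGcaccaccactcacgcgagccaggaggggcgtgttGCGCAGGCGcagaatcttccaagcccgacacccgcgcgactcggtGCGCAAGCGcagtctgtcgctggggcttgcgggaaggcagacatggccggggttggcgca
Uqcrc1: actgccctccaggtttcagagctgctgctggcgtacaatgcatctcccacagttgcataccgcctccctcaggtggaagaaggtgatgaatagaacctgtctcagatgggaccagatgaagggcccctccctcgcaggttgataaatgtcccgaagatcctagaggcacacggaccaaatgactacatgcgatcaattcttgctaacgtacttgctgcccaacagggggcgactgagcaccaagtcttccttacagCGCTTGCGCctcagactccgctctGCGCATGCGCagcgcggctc
Cox6a1: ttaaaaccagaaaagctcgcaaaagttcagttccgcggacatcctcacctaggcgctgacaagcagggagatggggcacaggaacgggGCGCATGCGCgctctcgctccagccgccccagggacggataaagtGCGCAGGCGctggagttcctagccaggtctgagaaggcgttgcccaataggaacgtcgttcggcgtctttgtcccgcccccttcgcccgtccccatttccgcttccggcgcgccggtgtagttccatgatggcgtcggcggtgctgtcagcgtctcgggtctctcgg
Atp5h: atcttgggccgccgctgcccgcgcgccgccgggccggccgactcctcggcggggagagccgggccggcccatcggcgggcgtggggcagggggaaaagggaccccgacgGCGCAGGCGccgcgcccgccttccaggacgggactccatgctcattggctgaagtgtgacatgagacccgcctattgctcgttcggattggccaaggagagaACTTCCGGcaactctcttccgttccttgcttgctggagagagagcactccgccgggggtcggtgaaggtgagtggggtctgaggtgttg
Cox6b2: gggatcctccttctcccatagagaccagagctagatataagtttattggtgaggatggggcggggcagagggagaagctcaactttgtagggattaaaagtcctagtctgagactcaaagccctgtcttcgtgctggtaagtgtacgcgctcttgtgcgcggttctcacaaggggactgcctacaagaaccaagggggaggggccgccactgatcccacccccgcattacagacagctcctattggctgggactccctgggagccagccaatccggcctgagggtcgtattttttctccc

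The 4 windows of restricted complex IV isoforms held none of the 4 motifs. At least 1 was held by 43.0% of all member windows and by 2 of 9 windows of common complex IV subunits. The share was 11.7% of all promoter windows and 15.5% of those of protein-coding genes. Whether 0 of 4 differs from these shares was not tested. By complex, the NRF1 letters were in 9 of 40 windows of complex I, 2 of 3 of complex II, 2 of 5 of complex III, 1 of 13 of complex IV and 7 of 18 of complex V. The YY1 letters were in 7 windows of complex I, 3 of complex V and none of the others. The printed windows with NRF1 matches belong to genes whose differences from KKAy ran from -0.18 for Uqcrc1 in Insulin to 0.13 for Atp5h in BI.

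The regulators of mitochondrial biogenesis were measured for 19 of 19 listed genes, and 0 passed the adjusted limma threshold. Their median differences were 0.0027 in Insulin and 0.037 in BI against KKAy, and -0.012 between the treatments. The 2 of smallest p against KKAy were the same in both treatments. Ppargc1a, the coactivator PGC-1α that drives oxidative genes and hepatic gluconeogenesis, read 8.65, 8.70 and 8.80 in the KKAy arrays, 7.97, 8.47 and 8.00 in the Insulin arrays and 8.12, 8.00 and 8.32 in the BI arrays. All treated arrays lay below all KKAy arrays, with differences of -0.57 ± 0.20 (SE) and -0.57 ± 0.20 and unadjusted limma p of 0.021 and 0.02. Esrrg, an estrogen-related receptor that partners PGC-1α, read 6.50, 6.41 and 6.54 in the KKAy arrays, 7.80, 7.02 and 7.61 in the Insulin arrays and 7.38, 7.15 and 7.93 in the BI arrays. All treated arrays lay above all KKAy arrays, with differences of 0.99 ± 0.28 and 1.00 ± 0.28 and unadjusted limma p of 0.0083 and 0.0079. The adjusted limma p for Esrrg in BI against KKAy was 0.90. Both treatments share the KKAy arrays in these differences. Between the treatments the smallest p were those of Perm1, at 0.95 ± 0.49, and Twnk, the mitochondrial helicase, at 0.30 ± 0.16. Perm1 was dim, at a mean of 5.90.

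Genes that work beside the complexes also gave 0 adjusted calls. Of the listed assembly factors outside the membership rule, 32 of 33 were measured, with 18 higher and 14 lower in Insulin and 17 higher and 15 lower in BI, against KKAy. Ttc19, needed for complex III, was higher by 0.50 ± 0.17 (SE) in Insulin and 0.45 ± 0.17 in BI. It read 7.96, 7.66 and 8.04 in the KKAy arrays, 8.37, 8.25 and 8.54 in the Insulin arrays and 8.29, 8.35 and 8.37 in the BI arrays, with all treated arrays above all KKAy arrays. Acad9, a complex I assembly factor, differed by -0.26 in Insulin, and Cox10, a complex IV assembly factor, by -0.44 ± 0.18 in BI. Between the treatments the smallest p were those of Lyrm7, a dim gene at a mean of 2.90, with 2.33 ± 0.69, and of Cox18, with -0.24.

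For the mobile electron carriers and the carriers of ADP and phosphate, 15 of 16 genes were measured and the median differences were -0.0012 in Insulin and -0.028 in BI against KKAy. The smallest p were those of Cyct, the testis cytochrome c, at 0.86 ± 0.59 (SE) in Insulin, and of Dhodh, which feeds electrons from pyrimidine synthesis to ubiquinone, at -0.39 ± 0.26 in BI. Slc25a31, a testis ADP/ATP carrier, followed in both, at 1.14 ± 1.06 and 1.53 ± 1.06. Cyct and Slc25a31 were dim, with means of 4.74 and 3.71, below the lowest array median of 6.11. Vdac2 differed by -0.15 between the treatments. For the tricarboxylic acid cycle, 16 of 17 genes were measured, with median differences of -0.013 and 0.016 against KKAy. Ogdh differed by -0.37 and Pdha1 by 0.19 in Insulin, and Idh2 by 0.25 and Pdha1 by 0.29 in BI. Suclg2 and Fh1 differed by 0.20 and -0.25 in BI against Insulin.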

How the data were processed

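Liver RNA (TRIzol, then RNeasy columns) was amplified by 3' IVT and put on 9 arrays, according to the protocols in the labels. The authors deposited log2 signals, 1 per probe set and array, and the sources used here do not name the software behind them. Each array's 2% trimmed mean of the linear signal was 500.004, so values were used as deposited, with no further normalization and no detection call. Of 45101 probe sets, 64 controls were left out. Gene names came from the platform annotation, in which 34945 probe sets had 1 symbol. All 91 members matched the table of current names.

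One limma fit (limma 3.58.1, R 4.3.3) with the group as factor covered all 9 arrays, with 6 residual degrees of freedom, two-sided tests and Benjamini-Hochberg adjustment over 45037 probe sets at 0.05. The script was tested on simulated data. Members, roles and gene lists were chosen with earlier results of these data known, so no test was run on a list. Named members are those of smallest p, 5 higher and 5 lower per comparison, the isoform families, the succinate dehydrogenase subunits, Cyc1 and the members of highest and lowest mean per complex. From each pathway list the 2 genes of smallest p per comparison are named. Alternatives covered scaling (quantiles or equal array medians), low means filtered out, a variance trend, array weights, only the groups compared, a replicate block, probe sets averaged per gene, other member sets and each array left out.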

Additional observations from a re-analysis of the deposited data

How the results depend on the processing

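In all 17 alternatives of each comparison, 0 members passed the adjusted limma threshold, and the smallest adjusted limma p of a named member was 0.68. At an unadjusted p under 0.05 the members numbered 0 to 2 in Insulin against KKAy and 0 to 1 in each BI comparison. Of 414 values of named genes, 409 kept their direction. The filter on low means, the variance trend, the replicate block and the fit of only the groups compared leave every difference unchanged. Direction could not change in those alternatives, and the named genes were chosen on these same arrays. Averaging a gene's probe sets turned Cox6a2 in Insulin against KKAy to -0.14 and Ndufa12 in BI to -0.026 against KKAy and -0.043 against Insulin. The same averaging moved the complex II medians to 0.11 in Insulin and 0.12 in BI against KKAy, and to -0.069 between treatments. With 1 array left out, the complex II median in BI against KKAy ran from -0.070 to 0.040, Ndufb4 in BI against Insulin from -1.58 to 0.059 and Ndufv1 from -0.012 to 0.28. Ndufb4 turned without BI replicate 1, and Ndufv1 without BI replicate 3. Equal array medians shifted the median of all genes by -0.054 in Insulin against KKAy and the members' median to -0.062.

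The 5 probe sets called in BI against KKAy, none a member, became 1 with the filter on low means, 0 with only the groups compared, and 0 to 2 with 1 array left out. In BI against Insulin the count was 1 with the filter and 0 to 1 with 1 array left out. The causes were not tested. With the replicate block, 0 probe sets and 0 members were called in BI against KKAy. After group means were taken out, arrays of the same number had correlations of -0.034 to 0.036 over all probe sets. Replicate 1 had the lowest array median of each group, at 6.11 in KKAy, 6.17 in Insulin and 6.13 in BI. Whether arrays of the same number share a batch is not given and was not tested. The number of arrays limits the precision, and dim genes, below the lowest array median of 6.11, have the widest intervals.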
